A study of Mus musculus with 12 samples.

Results

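The nuclear receptors for retinoids are encoded in the mouse by 6 genes, Rara, Rarb and Rarg for the retinoic acid receptors (RAR) and Rxra, Rxrb and Rxrg for the retinoid X receptors (RXR). They were taken by name from 21755 protein-coding genes on chromosomes 1 to 19 and X, and the selection rule uses no measured value. For each gene, the interactions were collected in which at least 1 anchor overlapped the mm10 gene body or the 10 kb on either side of it, termed here the gene window. All cells were of the E14Tg2A mouse embryonic stem cell line. The embryonic stem cells (ESC) were grown with 100 U/mL leukemia inhibitory factor (LIF), and the neuronal committed cells (NCC) came from the same line after 48 h in LIF-free medium with 1 μM all-trans retinoic acid. Each cell type was assayed by Hi-C, which joins DNA ends that lie close in the nucleus, and by HiChIP, in which the joined DNA is first enriched with an antibody, here against FGFR1 or against CTCF. The 12 samples thus formed 6 groups of 2 biological replicates, but the authors merged the replicates, and each group is 1 pooled library. Both cell types were grown for 48 h after the change of medium. Retinoic acid and LIF withdrawal differ together between ESC and NCC and cannot be told apart. RNA was not measured in these files, so the cell identity could not be checked against marker genes.

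RARs bind all-trans retinoic acid and act on DNA as dimers with an RXR, on response elements made of a pair of half-sites in direct repeat. Without ligand the dimer holds corepressors at the gene, and ligand binding exchanges them for coactivators. RXRs are also the shared partner of thyroid hormone, vitamin D, PPAR and liver X receptors. Rarb is itself a classical target of retinoic acid, through a response element at the promoter of its shorter coding isoforms.

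That element and its closest counterparts at the other members are shown because they mark where the receptors' own DNA letters lie with respect to the interaction anchors. The direct repeat with 5 bases between half-sites was searched as GNTCANNNNNNGNTCA on both strands of GRCm38, the assembly of mm10. It was found 26 times in the 6 windows, and 3 of the 26 matches lay inside an anchor in all 6 libraries. For each gene the match nearest to a protein-coding start site follows, 5′ to 3′, with the fixed letters of the search in capitals.

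Rara, chr11:98960009-98960024, plus strand: GtTCAgcaagaGtTCA

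Rarb, chr14:16575513-16575528, minus strand: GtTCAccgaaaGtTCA

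Rarg, chr15:102247619-102247634, plus strand: GgTCAttcacgGcTCA

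Rxra, chr2:27697460-27697475, plus strand: GcTCAgagcttGaTCA

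Rxrb, chr17:34036840-34036855, minus strand: GgTCActcaaaGgTCA

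Rxrg, chr1:167616375-167616390, plus strand: GaTCAcctgaaGgTCA

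The Rarb match lay 23 bases downstream of the start of the transcript Rarb-201, between match centre and start, whereas against the start used by the RefSeq promoter entry it lay upstream, with its first base 52 bases before that start. It was the only match among the 13 RefSeq promoter entries of the members (250 bases before to 50 after the start, GRCm38.p6), whereas 0.861% of all 32851 mouse promoters held one. The Rara match lay at -396 bases from the start of Rara-202 (negative is upstream), and those of Rarg and Rxrg at -1126 and -1927 bases from the nearest start. The nearest Rxra match lay at -11825 bases from a start and the nearest Rxrb match 4446 bases downstream of one. The matches at Rarb, Rarg and Rxrg were those inside an anchor in all 6 libraries, and the Rxrb match lay in an anchor of NCC Hi-C only. Per 100 kb of window the matches numbered 7.45 at Rara, 7.05 at Rarg, 7.52 at Rxrb, 3.76 at Rxra, 2.69 at Rarb and 1.63 at Rxrg, beside a mean of 3.04 over all gene windows. A match of letters is a description of the sequence and no evidence that a receptor was bound.

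The read pairs on chromosomes 1 to 19 and X numbered 20745652 in ESC Hi-C and 21228099 in NCC Hi-C, 2662606 and 3203872 in FGFR1 HiChIP, and 1218098 and 1056437 in CTCF HiChIP. Since there is 1 library per group, every interval below is a 95% interval for counting error alone, and every ratio compares pooled libraries after scaling to these totals. The anchors were called in each library from its own reads, so the length of DNA that could receive read pairs differed between libraries. It is given beside many of the counts. Over all gene windows, the median share of read pairs whose partner lay on another chromosome was 12.8% in ESC and 14.6% in NCC for Hi-C, 13.8% and 16.1% for FGFR1, and 12.7% and 15.4% for CTCF.

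The members differed widely in how strongly their windows were anchored. Rarg, which encodes the γ receptor, had the highest level of Hi-C read-pair ends per kb of window, 5.82 per 1000000 read pairs in ESC and 5.16 in NCC (percentiles 98.7 and 98.2 of all gene windows). Rara followed with 5.31 and 4.94, Rxrb with 4.57 and 3.99, Rxra with 3.32 and 3.23, and Rxrg with 1.71 and 1.80. Rarb stood far below with 0.330 in ESC and 0.391 in NCC, at percentiles 15.9 and 18.9. This order was the same in both cell types, and in Hi-C each neighbouring pair in it differed by more than the counting error.

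**Figure D1:**
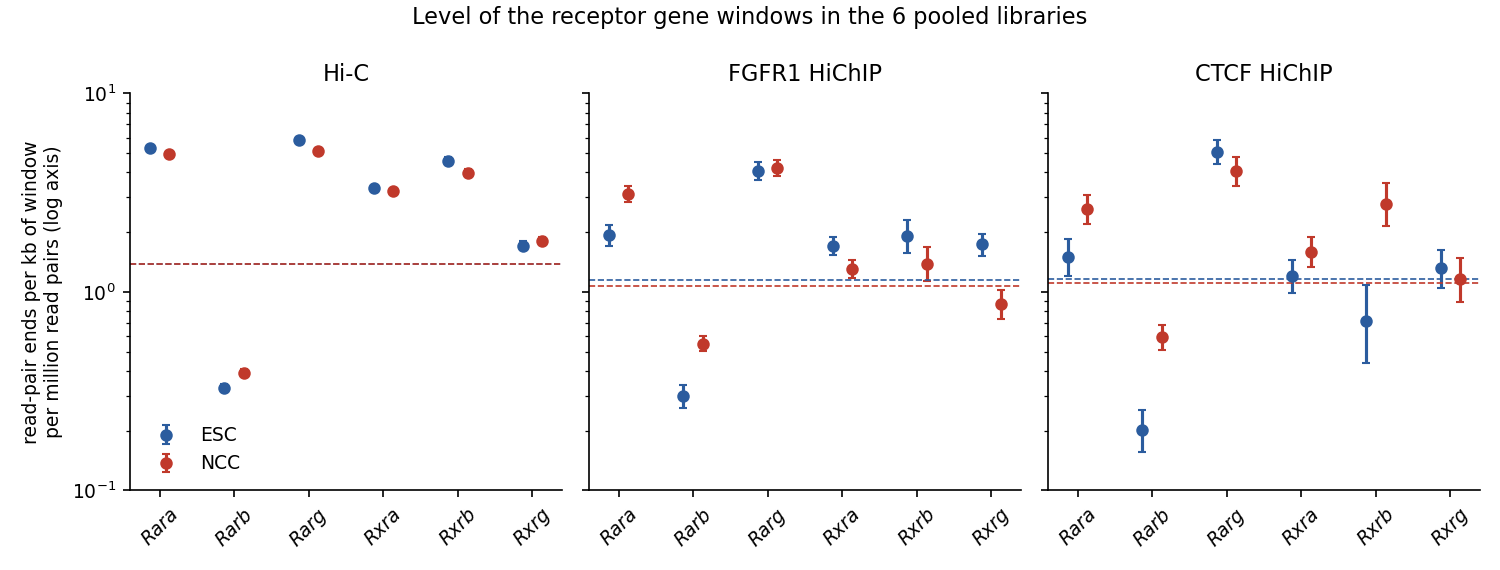
Read-pair ends per kb of gene window per 1000000 read pairs (log axis) for the 6 receptor genes in ESC (blue) and NCC (red), with 1 panel per assay. Bars are exact Poisson 95% intervals of the pair counts, dashed lines the median of all gene windows. Rarb lies lowest in every panel, from 0.201 to 0.591, and Rarg highest, from 4.05 to 5.82.

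In HiChIP the ends of the order stayed the same, with Rarg highest and Rarb lowest in all 4 libraries, but the middle did not. In ESC FGFR1 HiChIP the levels of Rara, Rxrb, Rxrg and Rxra ran from 1.94 to 1.70 per kb, and none of these neighbours differed beyond counting error. In NCC FGFR1 HiChIP, Rara stood at 3.12, above Rxrb at 1.39, Rxra at 1.31 and Rxrg at 0.872, and of these neighbours only Rxrb and Rxra did not differ. In ESC CTCF HiChIP, Rara at 1.5, Rxrg at 1.31, Rxra at 1.2 and Rxrb at 0.710 formed a run in which no neighbours differed. In NCC CTCF HiChIP, Rxrb at 2.78 and Rara at 2.62 did not differ from each other, nor did Rxrb from Rarg at 4.05.

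Rarb also stood apart in the length of its window. Its annotated body covers 388 kb (chr14:16430839-16819156, minus strand). The coding transcripts start far inside it, at positions 16575543 and 16575827, and the window of 408 kb takes in part of Top2b, for topoisomerase IIβ. The other windows were 26.6 kb at Rxrb (chr17:34031812-34038399, plus strand), 42.6 kb at Rarg (chr15:102234938-102257517, minus strand), 61.2 kb at Rxrg (chr1:167598384-167639623, plus strand), 67.1 kb at Rara (chr11:98927818-98974942, plus strand) and 107 kb at Rxra (chr2:27676440-27762957, plus strand). The Rxrb window also holds parts of Col11a2, H2-Ke6, Ring1 and Slc39a7, that of Rara parts of Cdc6 and Gjd3 and that of Rarg part of Itgb7, so their read pairs cannot be separated from those of the receptor.

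How far the receptor windows changed from ESC to NCC was examined first in read pairs. A ratio was called where its interval left out 1 and it was at least 25% higher or 20% lower. In Hi-C, 0 of 6 members were called, while 16.9% of all gene windows were called higher and 19.7% lower. Rarb had 1871 read pairs in ESC and 2362 in NCC, a scaled ratio of 1.23 (1.16 to 1.31), just under the size required. Rara had 5346 and 5131 (ratio 0.938), Rxra 5492 and 5516 (0.982), Rarg 3905 and 3564 (0.892), Rxrb 1972 and 1785 (0.885) and Rxrg 1747 and 1872 (1.05). In these windows the members other than Rarb had ratios of 0.885 to 1.05. In the gene body alone, however, Rarb was called at 1.30 and Rxrb at 2.02, and with flanks of 25 kb Rarg was called lower at 0.777.

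In FGFR1 HiChIP, 2 of 6 members were called higher and 2 lower, beside 22.3% and 32.5% of all gene windows. Rarb had 225 read pairs in ESC and 524 in NCC, a ratio of 1.94 (1.65 to 2.27). Rara had 263 and 478, a ratio of 1.51 (1.30 to 1.76). Both lay high among the 500 gene windows of nearest Hi-C coverage, Rarb at percentile 98.2 and Rara at 97.6. Rxrg, the RXR gene best known from muscle and brain, fell from 241 to 143 read pairs, a ratio of 0.493 (0.398 to 0.609), at percentile 8.4 of its like windows. Rxra fell from 371 to 342, a ratio of 0.766 (0.659 to 0.890), while the median ratio of all windows was 0.924. This call of Rxra was lost with flanks of 25 kb and when the median ratio was set to 1. Rarg (351 and 414, ratio 0.980) and Rxrb (111 and 105, ratio 0.786, interval 0.596 to 1.04) were not called, but in the gene body alone Rarg was called higher at 1.58, and with flanks of 25 kb Rxrb lower at 0.773.

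In CTCF HiChIP, 4 of 6 members were called higher and 0 lower, beside 22.2% and 23.0% of all gene windows. Rxrb had 21 read pairs in ESC and 66 in NCC, a ratio of 3.62 (2.19 to 6.24). Rarb had 69 and 189, a ratio of 3.16 (2.39 to 4.22). Rara had 90 and 142, a ratio of 1.82 (1.39 to 2.40), and Rxra 114 and 136, a ratio of 1.38 (1.06 to 1.78). The Rxra call was lost in the gene body without flanks and with partners within 1 Mb only. Rxrb and Rarb lay at percentiles 99.4 and 98.2 of their like windows, Rara at 96.8 and Rxra at 85.6. Rarg (199 and 139, ratio 0.805) and Rxrg (81 and 61, ratio 0.868) had intervals that reached 1, but Rarg was called lower in the gene body alone (0.629) and with flanks of 25 kb (0.745).

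Most of these differences in HiChIP went with a different length of anchored DNA. In the CTCF libraries the Rxrb window held 1 anchor of 1.71 kb in ESC and 4 anchors with 7.06 kb in NCC. Anchors at Rarb covered 30.0 kb in ESC and 69.5 kb in NCC with CTCF, and 63.9 and 104 kb with FGFR1. At Rara they covered 13.1 and 22.4 kb with CTCF, and 20.2 and 32.6 kb with FGFR1. At Rxrg the FGFR1 anchors covered 25 kb in ESC and 14.6 kb in NCC. In each of these cases, read pairs and anchored length differed in the same direction.

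**Figure D2:**
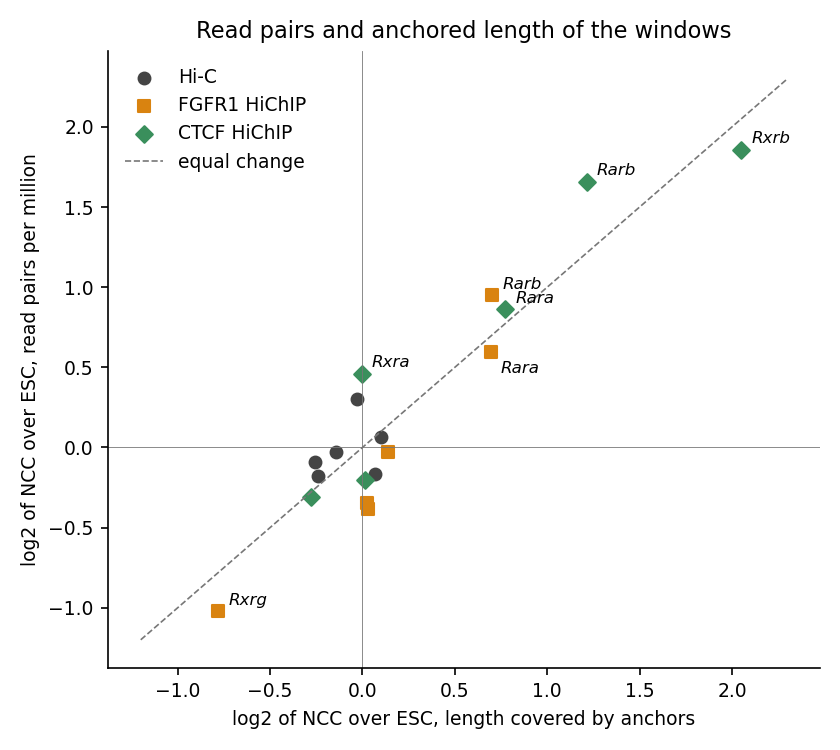
Log2 of NCC over ESC for the length covered by anchors (horizontal axis) and for read pairs per 1000000 (vertical axis) in the 6 receptor windows, with 1 point per gene and assay. The dashed line marks equal change, and points with a log2 ratio beyond 0.4 in read pairs are named. The named points lie on the same side of 0 on both axes, except for Rxra in CTCF HiChIP, whose anchored length was 31.5 and 31.4 kb.

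The windows were therefore compared again in read pairs per kb of anchor. In Hi-C, 1 of 6 members was called, beside 3.37% of windows called higher and 5.82% lower: Rarb, with 0.633 read pairs per kb of anchor per 1000000 in ESC and 0.797 in NCC, a ratio of 1.26 (1.19 to 1.34, percentile 96.2 of all windows). Its anchored length was nearly equal, 143 kb in ESC and 140 kb in NCC. In CTCF HiChIP, 2 of 6 members were called higher and 0 lower, beside 9.57% and 6.71% of all windows, namely Rxra with a ratio of 1.38 (1.07 to 1.79) and Rarb with 1.36 (1.03 to 1.82). In FGFR1 HiChIP, Rxra was called lower with 0.751 (0.646 to 0.872) and no member higher, beside 31.2% and 2.51% of all windows. Rarb had an FGFR1 ratio of 1.19 (1.02 to 1.40), at percentile 91.4, under the size required.

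On this scale the other large differences were within counting error. The ratio was 0.934 (0.802 to 1.09) for Rara and 0.847 (0.684 to 1.05) for Rxrg in FGFR1 HiChIP. It was 1.07 (0.813 to 1.40) for Rara and 0.875 (0.529 to 1.51) for Rxrb in CTCF HiChIP. For these genes, the number and length of the anchors differed between the cell types, and read pairs per kb of anchor did not differ beyond counting error.

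**Figure D3:**
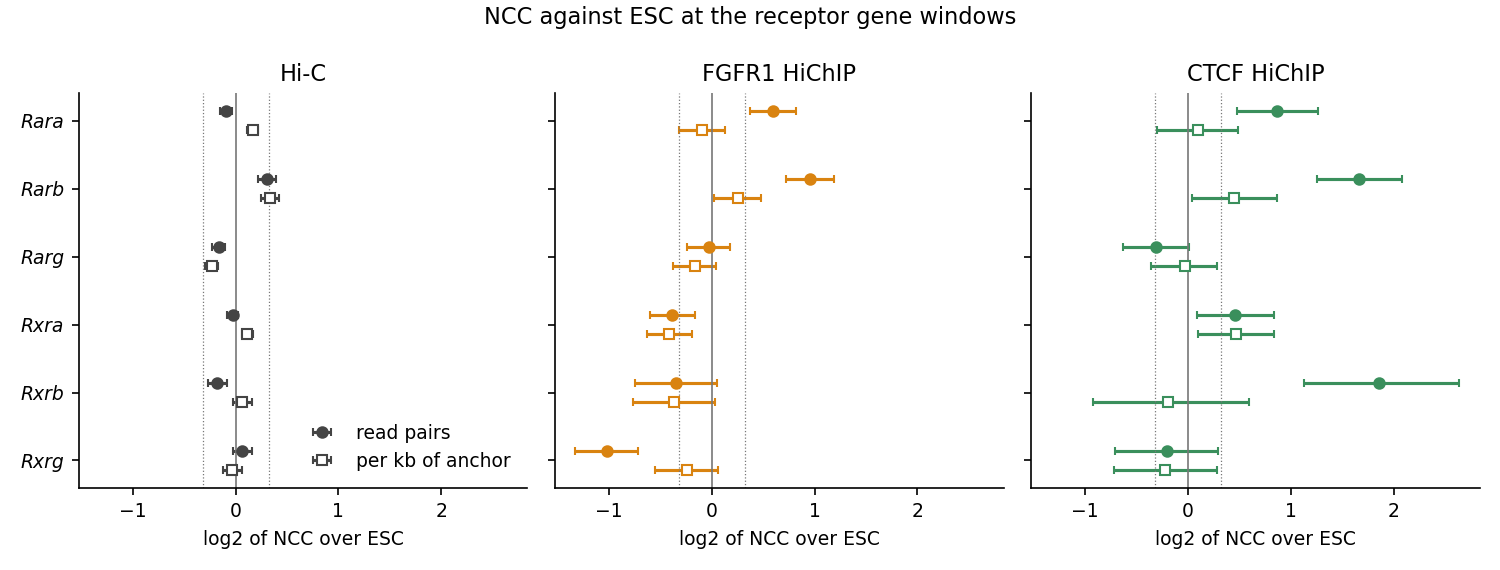
Log2 of NCC over ESC for read pairs (filled circles) and read pairs per kb of anchor (open squares) at each receptor window, with 1 panel per assay. Bars are exact 95% intervals for counting error, and dotted lines mark the size needed for a call, 25% higher or 20% lower. Rarb lies right of 0 on both scales in all 3 assays, and the CTCF difference of Rxrb is seen only in read pairs.

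A comparison that does not depend on anchor length is that of anchors with the same start and end in both cell types. It was made in read-pair ends, and a pair inside 1 anchor, or between 2 anchors of a sum, adds 2 ends. Ends are thus not all independent, and the intervals for ends of shared anchors are too narrow for the counting error. There were 13 such anchors in Hi-C, 13 in FGFR1 HiChIP and 7 in CTCF HiChIP over the 6 windows, with 5 called higher and 0 lower, and all 5 lay at Rarb. Of the 5, 2 were in Hi-C, 1 in FGFR1 HiChIP and 2 in CTCF HiChIP. The members were not covered equally, since Rarb held 6 of the shared anchors in Hi-C, 6 in FGFR1 HiChIP and 3 in CTCF HiChIP. Rxrb had only 1, with FGFR1, and Rarg had none in any assay, so Rarg was not compared. Over all gene windows, 4.49% of such anchors were called higher and 6.90% lower in Hi-C, 1.23% and 9.67% in FGFR1 HiChIP, and 3.78% and 2.54% in CTCF HiChIP. The 6 shared Hi-C anchors of Rarb held 443 read-pair ends in ESC and 560 in NCC, a ratio of 1.24 (1.09 to 1.40). Its 3 shared CTCF anchors held 15 and 36, a ratio of 2.77 (1.48 to 5.44), and its 6 shared FGFR1 anchors 69 and 102, a ratio of 1.23 (0.896 to 1.69). At Rara the shared anchors had ratios of 1.00 in Hi-C, 1.04 with FGFR1 and 1.44 with CTCF, and every interval held 1.

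The shared anchor at chr14:16573513-16576090 is the one that contains the printed Rarb repeat and the starts of the coding transcripts. It held 4 CTCF read-pair ends in ESC and 12 in NCC (ratio 3.46, interval 1.05 to 14.7), and 13 and 22 FGFR1 ends (1.41, interval 0.678 to 3.04). In Hi-C the anchor at the repeat ran over 2.58 kb in ESC with 80 ends and over 9.23 kb in NCC with 194 ends. Per kb this was 1.5 ends per 1000000 in ESC and 0.99 in NCC, so the longer NCC anchor was not the denser one. The other called anchors of Rarb lay further into the gene: CTCF at chr14:16550537-16552214 with 7 and 19 ends, FGFR1 at chr14:16568695-16570586 with 13 and 35, and Hi-C at chr14:16527341-16538383 with 135 and 192. The last, Hi-C at chr14:16740534-16743520, had 44 and 70 ends and lay upstream of the coding starts.

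Anchors within 2.5 kb of the start sites were listed for the other members. Rara has a first start at position 98927818 and internal starts near 98937718, 98939711 and 98960412. The Hi-C anchor over the first start had 1797 ends over 15.5 kb in ESC and 1071 over 8.91 kb in NCC, or 5.59 and 5.66 ends per kb per 1000000. The anchor over the starts near 98937718 had 708 ends over 3.70 kb in ESC and 1731 over 12.9 kb in NCC, or 9.22 and 6.34 per kb. In HiChIP all anchors within 2.5 kb of the first start covered it. With FGFR1 they had 148 ends over 8.91 kb in ESC and 75 over 3.27 kb in NCC. Per kb per 1000000 this was 6.24 and 7.16. With CTCF they had 52 over 5.22 kb and 13 over 1.43 kb, or 8.18 and 8.63 per kb. Near the starts at 98937718, FGFR1 had 42 ends over 1.60 kb in ESC and 141 over 7.56 kb in NCC. CTCF had 21 over 1.60 kb and 53 over 5.465 kb. Ends per kb there were lower in NCC, 9.83 and 5.82 with FGFR1, and 10.7 and 9.18 with CTCF. There only the NCC FGFR1 anchor reached the start, while the ESC FGFR1 anchor and both CTCF anchors ended short of it.

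At Rarg a single NCC Hi-C anchor of 28.1 kb covered both start sites, with 3217 ends. In ESC these lay in separate anchors of 11.7 kb and 12.6 kb with 1571 and 1572 ends. The ends per kb were 6.47 and 6.0 per 1000000 in ESC and 5.39 in NCC, so ends per kb were no higher in NCC although the ends per site were. In FGFR1 HiChIP, where the anchors stayed separate, the first start of Rarg had 96 ends over 5.83 kb in ESC and 184 over 7.53 kb in NCC, or 6.18 and 7.63 per kb per 1000000.

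Rxrb and Rxrg had no CTCF anchor within 2.5 kb of their first start in ESC. In NCC the Rxrb starts lay in a CTCF anchor of 2.04 kb with 21 ends, and the first Rxrg starts in one of 1.93 kb with 14 ends. Since counts exist only where an anchor was called, these are gains of an anchor, and an unlisted ESC site is not shown to be without contact. At Rxra the first start had 30 CTCF ends over 6.54 kb in ESC and 48 over 7.58 kb in NCC, or 3.76 and 5.99 per kb per 1000000. The core of the CTCF motif was searched by its fixed letters on both strands. It was found 12 times in the Rara window, 12 in that of Rxra, 7 at Rarb, 6 at Rxrg, 4 at Rarg and 1 at Rxrb. Per 100 kb of window this was 17.9 at Rara, 11.3 at Rxra, 9.80 at Rxrg, 9.39 at Rarg, 3.76 at Rxrb and 1.71 at Rarb, beside a mean of 7.5 over all gene windows. The core was found in 0 of the 13 member promoter entries, beside 2.43% of all promoters.

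Set against Hi-C of the same cell type, HiChIP covered the receptor windows sparsely. Of 24 such ratios, 2 were called higher and 19 lower. In ESC, 0 members were called higher and 4 lower for FGFR1, and 0 and 5 for CTCF, beside 21.0% and 44.2% of all windows for FGFR1 and 19.4% and 38.5% for CTCF. The lowest ratios were those of CTCF at Rxrb, 0.181 (0.112 to 0.278), Rara, 0.287 (0.230 to 0.353), and Rxra, 0.354 (0.291 to 0.426). The anchored length at Rxrb in ESC was 1.71 kb with CTCF and 18.1 kb with Hi-C. In ESC the FGFR1 ratio of Rxrg was 1.07 and that of Rarb 0.937, and neither interval left out 1.

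In NCC, 1 member was called higher and 5 lower for each antibody, beside 22.9% and 50.2% of all windows for FGFR1 and 21.6% and 39.5% for CTCF. The member above Hi-C was Rarb in both, with 1.47 (1.33 to 1.62) for FGFR1 and 1.61 (1.38 to 1.87) for CTCF, at percentiles 98.8 and 97.2 of windows with like Hi-C coverage. The CTCF ratio of Rxrb was 0.743 in NCC and 0.181 in ESC, that of Rara 0.556 and 0.287. The NCC over ESC ratio in HiChIP divided by that in Hi-C was 2.03 on the log2 scale (1.32 to 2.75) for CTCF at Rxrb, 1.36 (0.95 to 1.76) at Rarb and 0.96 (0.57 to 1.34) at Rara. For FGFR1 it was 0.69 (0.46 to 0.91) at Rara, 0.65 (0.41 to 0.89) at Rarb and -1.09 (-1.40 to -0.77) at Rxrg.

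The distance profile separated Rarb from the others. Of its Hi-C read pairs with the partner within 1 Mb, 12.7% (10.9 to 14.8, Wilson interval) lay at 250 kb to 1 Mb in ESC and 19.7% (17.6 to 21.9) in NCC, from 145 of 1138 and 261 of 1325 read pairs. This gain of 6.96 percentage points stood at percentile 96.5 of all windows with enough pairs, whose median was -0.37. Over those windows the Hi-C share was higher with intervals apart in 4.15% and lower in 5.85%. In FGFR1 HiChIP the same share was 12.6% of 127 pairs in ESC and 31.8% of 314 in NCC, with intervals apart, beside 1.17% of windows higher and 0.857% lower. In CTCF HiChIP it was 16.7% of 36 and 26.2% of 107, with overlapping intervals. The number of anchors on the upstream side of Rarb differed between the cell types, as given with its partners, and its part in these shares was not tested.

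Rarg showed a smaller difference of the same kind in Hi-C, 6.43% of 3015 pairs in ESC and 8.70% of 2622 in NCC, with the share at 20 to 250 kb at 48.6% and 43.5%. The difference of 2.26 percentage points stood at percentile 80.6. In FGFR1 HiChIP the long-range share of Rarg was 9.15% in ESC and 5.59% in NCC, with overlapping intervals, so the assays did not show the same direction. For Rara (8.75% and 8.14%), Rxrb (11.8% and 11.3%), Rxra (23.4% and 21.6%) and Rxrg (18.9% and 17.9%) the Hi-C intervals overlapped. Rxra had the largest long-range share of the 6 genes in both cell types. Partners on another chromosome made up 20.7% of Rarb Hi-C pairs in ESC and 24.3% in NCC, above the medians of all windows, and between 8.87% and 14.7% at the other members.

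**Figure D4:**
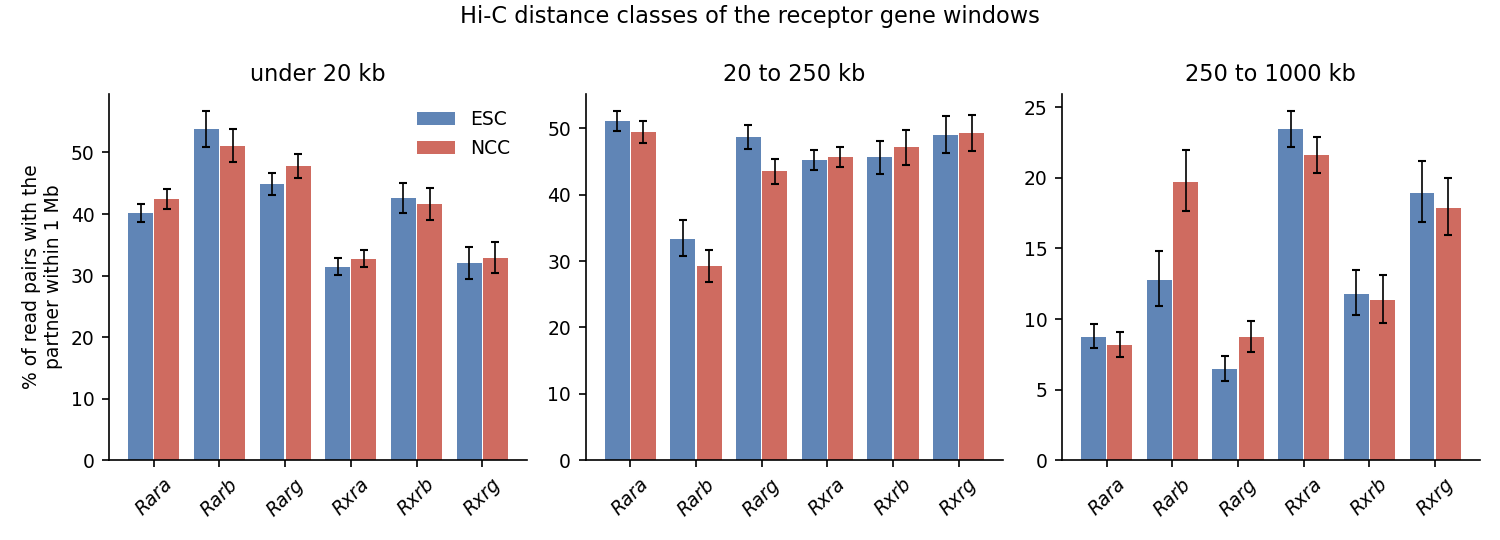
Share of Hi-C read pairs of each receptor window by distance between anchor midpoints, in percent of pairs with the partner within 1 Mb, for ESC (blue) and NCC (red). Pairs inside 1 anchor are counted under 20 kb, and bars are Wilson 95% intervals. The share at 250 kb to 1 Mb differs beyond its intervals at Rarb, from 12.7% to 19.7%, and at Rarg, from 6.43% to 8.70%.

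Single partners were examined in 20 kb bins from 20 kb to 1 Mb outside each window, where a bin was tested with at least 10 read pairs in both libraries together and called at 2-fold or more. In Hi-C, 17 of 234 tested bins were called higher in NCC and 18 lower, and the background over all gene windows was 5.43% and 6.99%. In FGFR1 HiChIP it was 1 and 5 of 31 (background 5.24% and 9.56%), and in CTCF HiChIP 1 and 0 of 4 (background 6.28% and 5.32%). At Rara 3 bins were called higher and 3 lower of 42 in Hi-C, at Rarg 1 and 2 of 32, at Rxra 5 and 8 of 79, at Rxrb 1 and 1 of 30, and at Rxrg 1 and 2 of 36. Rarb had 6 higher and 2 lower of 15, but 5 of its 6 higher bins had no anchor in ESC. With anchors in both cell types, Rarb had 1 higher and 2 lower of 10.

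In Hi-C, partners of Rarb lay mostly downstream in ESC and upstream in NCC. In ESC Hi-C, 72 of its 207 partner pairs lay upstream of the gene (34.8%, 28.6 to 41.5), and in NCC 232 of 320 (72.5%, 67.4 to 77.1). Downstream, towards Top2b, there were 135 pairs in ESC and 88 in NCC. The numbers expected from distance and bin coverage were 35.3 and 153 upstream, and 172 and 167 downstream. The anchors upstream changed with it: within 1 Mb, 29 Hi-C anchors in 15 of 49 bins were called in ESC and 77 anchors in 40 bins in NCC, while downstream there were 74 and 62. In the 13 upstream bins with anchors in both cell types, the pairs numbered 66 in ESC and 61 in NCC. FGFR1 HiChIP had 12 upstream pairs in ESC (36.4%, 22.2 to 53.4) and 95 in NCC (74.8%, 66.6 to 81.5), on 27 and 82 anchors. Its ESC interval did not settle which side held most pairs. CTCF HiChIP, with few pairs, had most of them upstream in both cell types, 5 of 7 in ESC and 34 of 43 in NCC. Its upstream bins with anchors in both cell types had 5 and 19. The upstream gain of Rarb in Hi-C therefore lay in bins where an anchor was called in NCC and not in ESC. Whether contact existed there in ESC below the calling threshold was not tested.

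The bins themselves give the scale. At Rarb the bin 581 kb upstream had 0 Hi-C pairs in ESC and 19 in NCC, that at 80.8 kb 0 and 26, and that at 40.8 kb 0 and 22. The expected number, taken from the window's own pairs, the distance and the coverage of the bin, was exceeded 7.35-fold at 581 kb, 1.60-fold at 80.8 kb and not at 40.8 kb (0.71). It takes distance from the window edge and is not adjusted for window length. How far the long Rarb window shifts these folds was not tested. In the same bin at 80.8 kb, FGFR1 HiChIP had 0 and 12 pairs. The 3 bins with most Hi-C pairs over both cell types, after scaling, were 20.8 kb upstream with 30 pairs in ESC and 13 in NCC, 50.8 kb downstream at the Top2b start with 25 and 7, and 171 kb downstream at Ngly1 and Oxsm with 14 and 12. The first 2 of these were called lower.

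**Figure D5:**
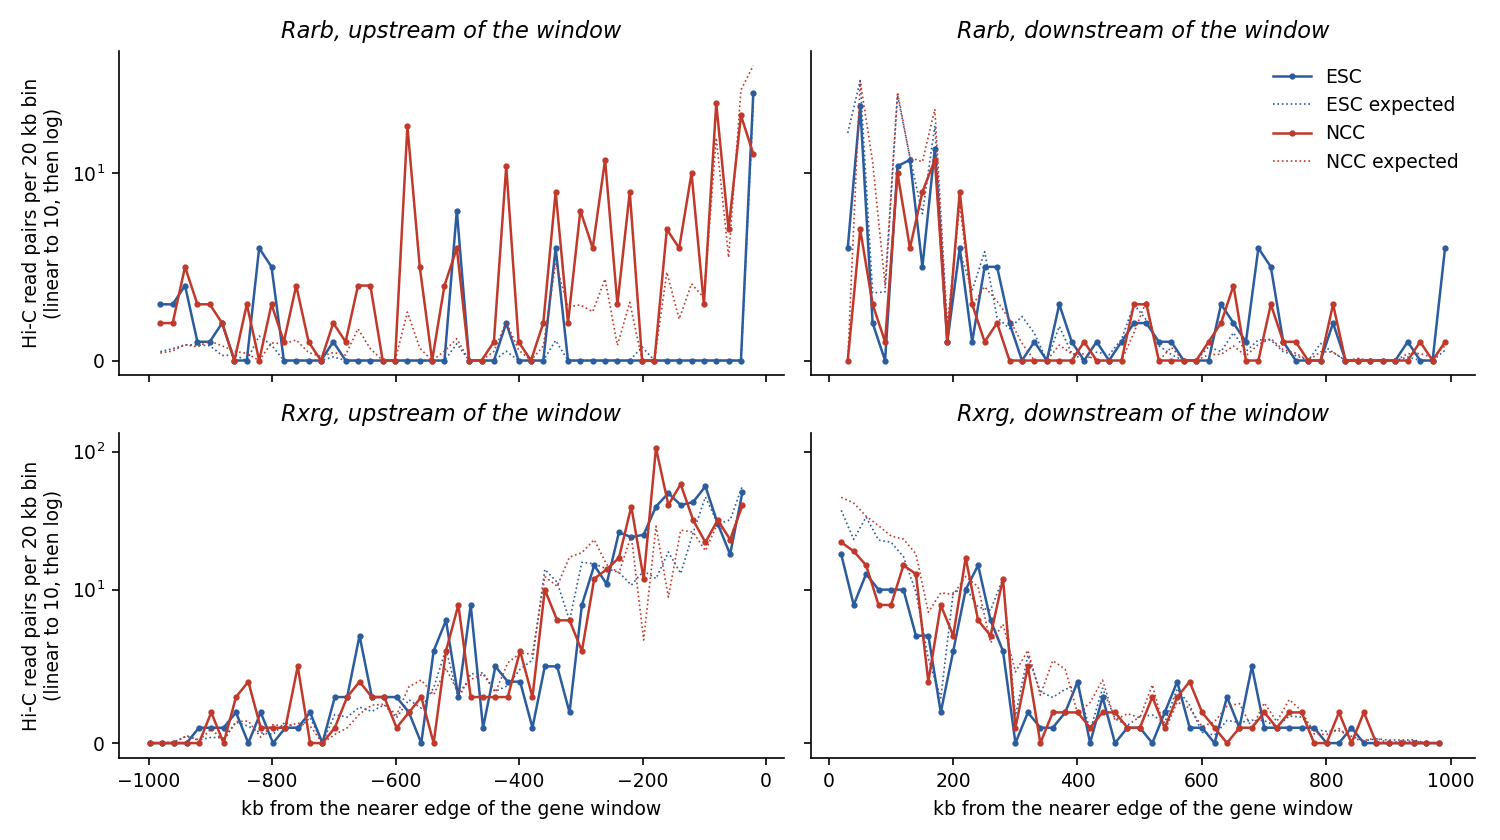
Hi-C read pairs between the gene window and each 20 kb bin against the distance from the window edge in kb, upstream as negative distance, for Rarb (top) and Rxrg (bottom). Solid lines show ESC (blue) and NCC (red), dotted lines the number expected from distance and bin coverage, and the vertical axis is linear to 10 and logarithmic above. The upstream side of Rarb holds 72 pairs in ESC and 232 in NCC, and the bin 178 kb upstream of Rxrg 40 and 106.

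Rxrg contacted mostly its upstream side in both cell types, with 527 of 696 partner pairs in ESC and 555 of 767 in NCC. The bin 178 kb upstream rose from 40 to 106 pairs, a ratio of 2.59 (1.78 to 3.83), with 3 anchors in each cell type, and stood at 3.33 and 3.68 times the expected number. The expected number itself, which carries the coverage of the bin, was 12 in ESC and 28.8 in NCC. The bin 138 kb upstream had 41 and 58 pairs (3.13 and 2.15 times expected) and that 38.4 kb upstream 51 and 41. The bin 98.4 kb upstream fell from 56 to 22 and that 198 kb upstream, at Mgst3, from 25 to 12.

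The strongest Rara partners lay downstream. The bin at 25.1 kb fell from 179 to 81 pairs (ratio 0.442, 0.336 to 0.578), on 4 and 3 anchors. Its expected number fell from 133 to 57.4, so it stood at 1.34 and 1.41 times that number. The Rara anchor at the downstream window edge reached position 98994069 in ESC and 98983915 in NCC. The next bin, which holds the Top2a start, had 122 and 96 pairs (0.769, 0.582 to 1.01). The bin at 165 kb, with the start of the chemokine receptor gene Ccr7, had 138 and 104 pairs and stood at 2.14 and 2.37 times the expected number. All 3 bins exceeded their expectation in both cell types. Among the weaker bins, that at 245 kb, with the start of the chromatin remodelling gene Smarce1, fell from 24 to 8 pairs.

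At Rarg the bin 54.9 kb downstream fell from 197 to 85 pairs (ratio 0.422, 0.323 to 0.546), at 1.53 and 1.39 times the expected number. The bins 22.5 kb upstream, at the separase gene Espl1, with 206 and 155 pairs, and 62.5 kb upstream, at Myg1 and Pfdn5, with 112 and 87, were not called. At Rxra the strongest bin lay 116 kb upstream, with 123 Hi-C pairs in ESC and 223 in NCC (ratio 1.77, 1.42 to 2.23) at 2.54 and 2.58 times the expected number. In FGFR1 HiChIP the same bin fell from 25 pairs, on 3 anchors, to 1, on 1 anchor. The FGFR1 expected number there fell as well, from 7.63 to 0.237. In CTCF HiChIP the bin had 1 and 7 pairs. The other leading Rxra bins, 76.4 and 56.4 kb upstream, had 133 and 156, and 152 and 142 pairs, neither called.

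At Rxrb, within the major histocompatibility complex, the leading bins lay 21.6 kb downstream with 145 and 95 Hi-C pairs, 61.6 kb downstream at H2-DMa with 76 and 48, and 71.8 kb upstream, at B3galt4, Pfdn6, Rps18, Vps52 and Wdr46, with 70 and 39. None of the 3 was called at 2-fold, and the upstream one stayed under its expectation at 0.673 and 0.690. In CTCF HiChIP the bin at 21.6 kb had 1 pair in ESC and 9 in NCC (ratio 10.4, 1.44 to 455). Rxrb partner pairs lay mostly downstream, 68.9% in ESC and 68.6% in NCC.

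Rara and Rarb each lie near a thyroid hormone receptor gene and a topoisomerase II gene, an arrangement left by an ancient duplication. Between Rarb and Thrb, 841 to 981 kb upstream, there were 14 Hi-C pairs in ESC and 20 in NCC, which was 3.39 (1.85 to 5.69) and 3.86 (2.36 to 5.96) times the expected number. Between Rara and Thra, 148 to 168 kb away, there were 132 and 76, or 0.94 (0.79 to 1.12) and 0.79 (0.62 to 0.98) times. The excess was not particular to Thrb, since the other 42 Rarb bins from 500 kb outward had 51 pairs in ESC and 74 in NCC, or 3.47 (2.59 to 4.57) and 3.24 (2.55 to 4.07) times the expected number. Upstream, on the side of Thrb, 17 of these bins stood at 6.213 (3.795 to 9.596) and 4.677 (3.514 to 6.103) times. These upstream values lay above those of Thrb, with overlapping intervals. On the downstream side alone the bins stood at 2.71 (1.84 to 3.84) and 1.78 (1.08 to 2.74) times. Distance in the expectation ran from the window edge, with no adjustment for window length. The effect of the long Rarb window on these folds was not tested. In HiChIP the Rarb and Thrb pairs numbered at most 3.

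Rara with Top2a, 25.1 to 45.1 kb away, had 301 and 177 Hi-C pairs, 1.37 (1.22 to 1.53) and 1.39 (1.19 to 1.61) times the expected number. Rarb with Top2b, counted in bins 30.8 to 50.8 kb away, had 31 in ESC and 7 in NCC, 0.59 (0.40 to 0.83) and 0.20 (0.08 to 0.41) times. The part of Top2b inside the Rarb window or nearer to its edge was not counted. Here too the expectation was not adjusted for the length of the Rarb window, and the intervals cover counting error only. The clock gene Nr1d1, beside Rara, had 59 and 33 pairs, 0.93 and 0.80 times the expected number, with both intervals holding 1. Nr1d2 lies beyond 1 Mb of Rarb and had 4 pairs in ESC Hi-C and 10 in NCC. Between Rarg and the Hoxc cluster, 662 to 762 kb upstream, there were 21 and 16 Hi-C pairs against 24.4 and 22.0 expected, so no excess was detectable. Between any 2 of the 6 members there was 1 pair in each Hi-C library, against 0.48 and 0.61 expected, and 0 in each HiChIP library, which allows up to 3 pairs each.

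Other genes of retinoid handling were set beside the receptors as a list of 30. In Hi-C, 9 of the 30 were called higher and 3 lower, in FGFR1 HiChIP 6 and 12, and in CTCF HiChIP 8 and 6. All gene windows were called higher and lower at 16.9% and 19.7% in Hi-C, 22.3% and 32.5% with FGFR1, and 22.2% and 23.0% with CTCF. With the median ratio of all windows set to 1, the FGFR1 split was 8 and 10. The median log2 ratios of the list were -0.05, -0.19 and 0.05, beside -0.01, -0.11 and -0.01 over all windows. By role, 4 of 5 genes for binding and uptake were called higher in Hi-C and 0 lower, but 0 and 2 of them with FGFR1 and 1 and 2 with CTCF. Of 11 genes for RXR partners, 0 and 2 were called in Hi-C, 1 and 4 with FGFR1 and 2 and 2 with CTCF. Overlap between the windows of list genes was not examined, so neighbouring genes may share read pairs and need not be independent. All 3 genes of the Cyp26 enzymes, which break down retinoic acid, were called higher in Hi-C. Cyp26a1 had 1330 and 2313 pairs (ratio 1.70), Cyp26b1 1659 and 2639 (1.55) and Cyp26c1 1382 and 1857 (1.31). In CTCF HiChIP their ratios were 1.46, 1.53 and 1.42, all called, and with FGFR1 Cyp26a1 (2.3) and Cyp26c1 (1.89) rose and Cyp26b1 fell (0.761). Anchored length at Cyp26a1 in Hi-C was 16.8 kb in ESC and 35.7 kb in NCC, at Cyp26b1 22.4 and 30.2 kb and at Cyp26c1 19.8 and 22.5 kb.

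Dhrs3, a retinaldehyde reductase that lowers retinoic acid synthesis, had the largest Hi-C ratio of the list, 632 and 1914 pairs (2.96, 2.70 to 3.24), with 19.5 and 34.1 kb of anchors, and ratios of 1.83 with FGFR1 and 1.73 with CTCF. Among the binding proteins, Crabp2 had a Hi-C ratio of 1.49 while its CTCF pairs went from 43 to 0, since no CTCF anchor was called there in NCC. Crabp1 had ratios of 1.37 in Hi-C, 3.24 with CTCF and 0.516 with FGFR1, so the assays moved in opposite directions. The coregulator Nrip1 rose in all 3 assays (1.37, 1.84 and 2.55 for Hi-C, FGFR1 and CTCF). Its anchors covered 70.3 kb in ESC and 65.6 kb in NCC in Hi-C, 29.3 and 50.1 kb with FGFR1, and 35.0 and 41.6 kb with CTCF. Lowest in Hi-C were Nr1h2, for a liver X receptor (0.568), the retinaldehyde dehydrogenase gene Aldh1a1 (0.674) and Thrb (0.725). Their anchored length was also shorter in NCC. It was 14.7 kb in ESC and 9.32 kb in NCC at Nr1h2, 78.1 and 53.4 kb at Aldh1a1, and 107 and 71.6 kb at Thrb. Lowest in FGFR1 HiChIP were Rbp4 (0.473), Crabp1, Vdr (0.563) and Aldh1a3 (0.568), and in CTCF HiChIP, after Crabp2, Nr1h3 (0.225) and Ncoa3 (0.372).

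Genes elsewhere in the genome with the most similar level over the 6 libraries were sought by the root mean square difference of log2 read-pair ends per kb. For Rarg these were Tspan31 (0.07) and Cyp27b1 (0.17), and for Rxrg Slc16a1 (0.08) and Arntl (0.11). For Rxra they were Cda (0.09) and Dcaf15 (0.11), and for Rxrb Slc38a8 (0.13) and Higd2a (0.15). Rara and Rarb had no such close match, with Glrx5 (0.245) and Mettl26 (0.254) nearest to Rara and Nhsl2 (0.31) and L3mbtl4 (0.35) nearest to Rarb. The likeness is over 6 libraries of 3 assays and is given as a description.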

How the data were processed

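The authors aligned Hi-C and HiChIP reads to mm10 and removed duplicate pairs with HiC-Pro, then called anchors and interactions with hichipper, at default settings. They merged the 2 biological replicates of each group, and the 6 deposited tables give, per interaction, a count of read pairs, not normalized, with anchors called in each library. Every anchor end checked lay at a GATC site. Depth is given with the results, and intervals cover counting error only, since the spread between cultures cannot be seen in merged tables.

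Counts were summed over gene windows (GENCODE vM21, gene body plus 10 kb) and scaled to the library's read pairs. Ratios of counts had exact conditional binomial 95% intervals, single counts exact Poisson intervals and shares Wilson intervals. For ratios of ends at shared anchors the intervals are too narrow, since a pair inside 1 anchor gives 2 ends. There is 1 library per group, so no p-value across genes was computed and calls compare libraries, not conditions. Percentiles were taken among the 500 gene windows of nearest Hi-C coverage, or all windows. Expected pairs of a partner bin were the window's own pairs with bins at 20 kb to 1 Mb, shared out by the genome-wide distance profile times the bin's coverage. Distance was taken from the window edge, with no adjustment for window length. Percentiles and background of a distance share were taken over windows with at least 50 pairs in both libraries of the assay. For the likeness of genes, 0.5 was added to the ends and genes within 2 Mb of the member were left out.

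Members, lists and named items (per member the 3 bins with most Hi-C pairs, called bins, at most 4 list genes per direction and assay, and the 2 most similar genes) were chosen with earlier results of these data known. One list gene that this rule would name is not reported here. Bins and start sites described beyond these were chosen after their values were seen. The comparisons per kb of anchor, of anchors with equal coordinates, of coding spans, of bins anchored in both cell types, of Rarb bins beyond 500 kb and of shared-out scores were chosen after seeing the data. Other windows, scalings, thresholds and bin sizes were also tried. Scripts used Python 3.11.15, numpy 2.4.6, scipy 1.17.1, pandas 2.3.3 and matplotlib 3.10.9, and were tested on simulated data. Promoter sequences came from RefSeq on GRCm38.p6.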

Additional observations from a re-analysis of the deposited data

How the results depend on the processing

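No paired analysis was possible because the replicates of each group were merged in the deposited tables, so no replicate could be left out either. In Hi-C, where 0 of 6 receptor windows were called, 2 were called in the gene body alone, and 1 each with 25 kb flanks, with scaling to pairs under 1 Mb, without pairs inside 1 anchor, and per kb of anchor. The 4 FGFR1 calls became 1 per kb of anchor and 0 over the anchors with the same coordinates, and the 4 CTCF calls became 2 and 1. Rxra and Rxrb, among the 4 called with CTCF, had no CTCF anchor with the same coordinates and could not be called there. The 35 called Hi-C partner bins became 69 with 10 kb bins, 16 with 40 kb bins, 18 with scores shared out over the partner anchor, and 0 by the methods' t-test over 3520 bin pairs after Bonferroni adjustment (2 at an unadjusted p under 0.05, smallest p 0.0341, over 100 values per bin pair that are not replicates). Genes with a differing share at 250 kb to 1 Mb numbered 2, and 4 with scores of at least 2.

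The direction turned for Rxrb in Hi-C (log2 1.02) and Rarg in FGFR1 HiChIP (0.66) in the gene body alone, for Rara in FGFR1 HiChIP (-0.10) and Rxrb in CTCF HiChIP (-0.19) per kb of anchor, and for Rxrg in FGFR1 HiChIP (0.043) over anchors with the same coordinates. The cause was not tested. The lower FGFR1 call of Rxra was lost with 25 kb flanks, with either other scaling and at 1.5-fold, and its higher CTCF call in the gene body, with scores of at least 2, with partners within 1 Mb and at 1.5-fold. HiChIP over Hi-C gave 15 to 21 calls of 24, and the ESC CTCF ratio of Rxrb had no value in the gene body, where no read pair was listed. CTCF counts, as low as 21 pairs per window, limit its partner bins to 4 testable ones.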
